A study of Homo sapiens with 6 samples.

Results

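The genes described here are 10 members of the IL-6 cytokine family, chosen by name from the 47432 genes listed in each library. They comprise 6 ligands (IL6, LIF, IL11, OSM, CLCF1 and CTF1) and 4 receptor chains (IL6R, IL6ST, LIFR and OSMR). Their transcripts were quantified by RNA-seq in the human melanoma cell line LOX-IMVI without and with knockdown of NFKBIZ, the gene of the nuclear NF-κB co-factor IκBζ. The study asked which cytokines depend on IκBζ in melanoma cells. Both groups were LOX-IMVI cells transduced with a pLKO.1 lentivirus and grown in RPMI-1640 medium with serum. In the shCtrl group (3 libraries) the virus carried a control short hairpin RNA, and in the shNFKBIZ group (3 libraries) a single hairpin directed at NFKBIZ. With 1 hairpin, the knockdown of NFKBIZ and any other action of that hairpin cannot be told apart. The study describes the libraries of a group as coming from separate experiments, and the p-values measure the spread between them. That spread was small, with correlations of log2 levels of 0.9956 to 0.9965 within a group and 0.959 to 0.963 between groups. The titles do not say whether each library had its own transduction, so the p-values may not cover spread between transductions.

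The libraries held between 22264473 and 24624839 exon reads, and the reads that fell in introns made up 7.16% to 7.46% of gene reads in shCtrl and 7.63% to 8.15% in shNFKBIZ. The targeted gene NFKBIZ was lower in the shNFKBIZ libraries, with a log2 fold change of -1.78 ± 0.0581 (SE). Of 8 melanocyte markers, SOX10, MLANA and S100B had 0 reads in all 6 libraries, and MITF, a melanocyte transcription factor, was the only marker that passed the filter on low counts, at 3.21 ± 0.373 TPM (SD, n = 3) in shCtrl. The label of a melanoma line was therefore not borne out by pigment cell markers, which alone cannot decide it, and markers of other melanoma states were not examined. TPM, a level corrected for gene length, is exon reads divided by exon length and scaled to the same sum in every library. Levels of different genes can then be set side by side as far as the annotated exon length is that of the transcripts made. That length is a single value per gene, 4321 bases for IL6 and 12159 for LIFR, and its match to the transcripts was not tested. The orders, shares and ratios between genes given below rest on it.

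Cytokines of the IL-6 family are secreted proteins that bind receptor complexes built around the shared chain gp130, the product of IL6ST. IL-6 and IL-11 first bind a chain of their own, while LIF, cardiotrophin-1 (CTF1) and cardiotrophin-like cytokine (CLCF1) recruit LIFR, and oncostatin M (OSM) recruits OSMR or LIFR to gp130. The complexes activate JAK kinases and the transcription factor STAT3, which in turn induces SOCS3, a feedback inhibitor of gp130. In melanoma, IL-6 and OSM are known to slow the growth of cells from early lesions, and cells from advanced lesions often no longer respond. The study counts IL-6 among cytokines that promote proliferation, and reports that IL-6 and IL-1β together restored it in serum-starved MV3 melanoma cells.

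The start windows of members on which the comparisons turn are shown first, so that the position of known motifs can be seen. RefSeq start windows of 300 bases (build GRCh38.p14) matched 6 of the 10 members, namely IL6, IL11, IL6R, IL6ST, LIFR with 3 windows, and OSMR, while LIF, OSM, CLCF1 and CTF1 had no entry. The 250 bases before the start are printed for IL6 (chr7:22726950-22727199, plus strand) and IL11 (chr19:55370464-55370713, minus strand), ligands that fell, for OSMR (chr5:38845762-38846011, plus strand), the receptor chain that fell, and for IL6ST (chr5:55994964-55995213, minus strand), the shared chain. Capitals mark a C/EBP match and then a κB match in IL6, an AP-1 match in IL11 and a C/EBP match in OSMR.
IL6: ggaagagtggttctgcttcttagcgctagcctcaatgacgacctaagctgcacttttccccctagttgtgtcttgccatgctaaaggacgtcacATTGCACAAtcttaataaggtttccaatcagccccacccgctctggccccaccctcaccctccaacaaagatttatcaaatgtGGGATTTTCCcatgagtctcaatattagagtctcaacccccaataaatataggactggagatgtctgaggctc
IL11: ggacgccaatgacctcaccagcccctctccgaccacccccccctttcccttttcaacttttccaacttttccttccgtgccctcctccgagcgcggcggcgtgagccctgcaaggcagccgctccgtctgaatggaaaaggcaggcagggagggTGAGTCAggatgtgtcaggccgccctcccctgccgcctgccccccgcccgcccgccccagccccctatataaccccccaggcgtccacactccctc
OSMR: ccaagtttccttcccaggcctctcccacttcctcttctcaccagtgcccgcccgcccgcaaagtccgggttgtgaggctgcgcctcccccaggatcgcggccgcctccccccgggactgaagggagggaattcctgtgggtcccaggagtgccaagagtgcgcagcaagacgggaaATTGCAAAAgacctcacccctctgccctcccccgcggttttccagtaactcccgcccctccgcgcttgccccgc
IL6ST: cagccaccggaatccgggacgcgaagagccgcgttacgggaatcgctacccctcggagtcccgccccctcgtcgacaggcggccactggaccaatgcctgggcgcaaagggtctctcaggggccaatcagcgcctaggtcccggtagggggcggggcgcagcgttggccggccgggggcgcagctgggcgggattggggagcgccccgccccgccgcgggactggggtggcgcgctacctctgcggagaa

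In the IL6 window the κB match, the type of element bound by NF-κB dimers, lay 73 to 64 bases before the RefSeq start, which is counted as position 0. A C/EBP match on the minus strand lay 156 to 148 bases before it. The IL11 window held an AP-1 match 96 to 90 bases before the start, and the OSMR window a C/EBP match on the minus strand 74 to 66 bases before it and an AP-1 match 3 to 9 bases after it. The IL6R window held an AP-1 match 37 to 43 bases after the start, the LIFR windows held 2 STAT matches and 1 C/EBP match, and the IL6ST window held no match to the letters searched. Motifs were searched on both strands as κB, AP-1 (TGANTCA), C/EBP (TTNNGNAAT) and STAT (TTCNNNGAA), and overlaps between motifs were allowed. Of 35116 RefSeq start windows of the same length, 5.91% held the κB motif, 7.71% AP-1, 11.0% C/EBP and 7.66% STAT, so that single matches of this kind are common, and a match is a description and not a site in use. For chromatin immunoprecipitation at the IL6 promoter the study designed a forward primer, agacatgccaaagtgctgag, and a reverse primer, tgcagcttaggtcgtcattg. These matched chr7:22726901-22727001 (hg38), a stretch of 101 bases that ends 199 bases before the start and so lies upstream of both matches.

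**Figure D1:**
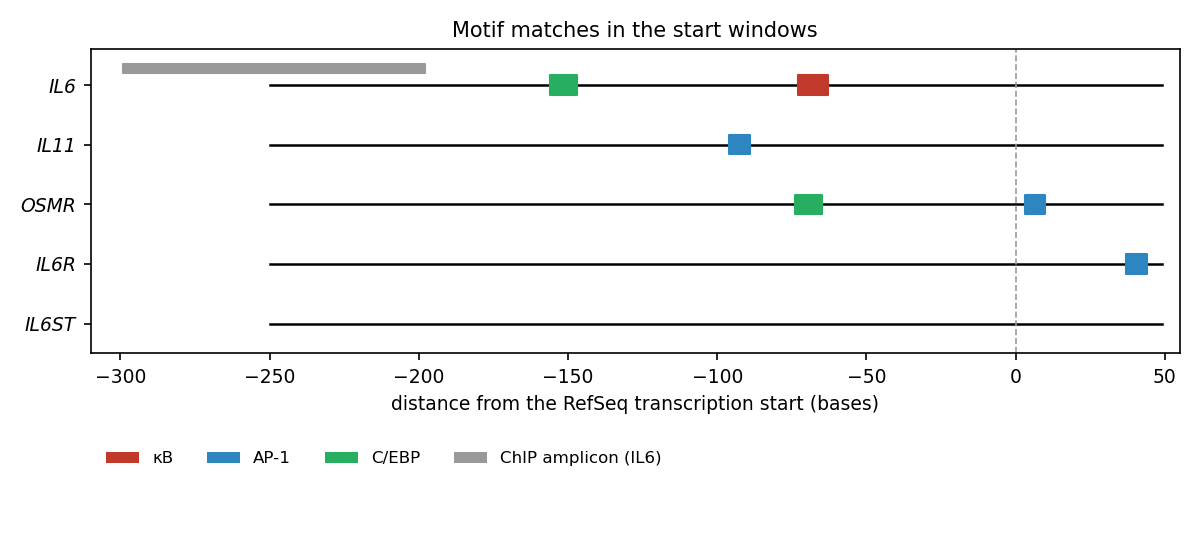
Motif matches in the RefSeq start windows of 5 members, with the distance from the transcription start in bases on the x axis, coloured boxes for matches, and a grey bar for the amplicon of the study's IL6 primers. The IL6 window holds the only κB match (73 to 64 bases before the start), and the amplicon ends 199 bases before the start.

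The levels of the ligands moved in both directions in shNFKBIZ cells. IL6, LIF and IL11 were lower, CLCF1 and CTF1 were higher, and OSM was not detected. Genes were compared with edgeR's quasi-likelihood test on exon reads, two-sided, and were past the threshold at a Benjamini-Hochberg adjusted p of at most 0.05 over all 13843 genes tested and a change of at least 2-fold. Of the 5 ligands tested, 3 were past the threshold and lower, where 5.12% of all genes tested were, and 2 were past it and higher, where 3.84% of all genes were. The median log2 fold change was -1.25 for the tested ligands and 0.00431 for all genes. IL6 passed the filter on low counts through the shCtrl libraries alone, and CTF1 passed it with all shNFKBIZ libraries and 1 of 3 shCtrl libraries, so that these counts describe the members and are not support for a shift of the class. In bulk RNA, fewer cells that make a transcript and less of it per cell cannot be told apart.

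IL6 (ENSG00000136244, chromosome 7, 22725884 to 22732002, plus strand, hg38), the founding ligand of the family, had 187, 270 and 237 exon reads in the shCtrl libraries and 4, 8 and 5 in the shNFKBIZ libraries. The groups were far apart, and every shNFKBIZ library was close to the floor of detection, set at 3 reads. The log2 fold change was -5.33 ± 0.222 (SE, edgeR adjusted p 9.4e-15), the lowest of all 13843 genes tested. IL6 entered that set through its shCtrl libraries alone. On the summed reads, 694 against 17, the ratio was 0.0258 (exact 95% interval 0.0150 to 0.0416, which covers counting error only). Reads that span an exon-exon junction, and thus come from spliced RNA, fell likewise, from 40, 60 and 51 to 2, 2 and 1 (log2 fold change -4.79, SE 0.389). Among the 10622 genes tested on such reads, this was the 3rd lowest value. STEAP1B lies on the opposite strand, its annotated span shares 1730 bases with that of IL6, and the counting did not use strand. Its exon reads ran from 886 to 905 in shCtrl and from 1205 to 1284 in shNFKBIZ, opposite to IL6.

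LIF (ENSG00000128342, chromosome 22, 30240453 to 30246759, minus strand), leukemia inhibitory factor, was counted with 694, 873 and 751 exon reads in the shCtrl libraries and 138, 132 and 120 in the shNFKBIZ libraries. No shNFKBIZ library came near the shCtrl range. Its level fell from 32.5 ± 3.27 to 5.74 ± 0.467 TPM (SD, n = 3), a log2 fold change of -2.58 ± 0.0879 (SE, edgeR adjusted p 3.28e-16) or 5.99-fold. Among all genes tested this was the 51st lowest value, and LIF was thus among the genes that fell most, although its fall was smaller than that of IL6.

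IL11 (ENSG00000095752, chromosome 19, 55364382 to 55370463, minus strand), a ligand known for effects on bone and fibrosis, was the most abundant ligand in shCtrl cells. It was counted with 646, 646 and 636 exon reads in the shCtrl libraries and 268, 285 and 263 in the shNFKBIZ libraries. The replicates of each group lay close together and the groups did not overlap. Its level fell from 39.2 ± 1.85 to 17.4 ± 1.03 TPM (SD, n = 3), a log2 fold change of -1.25 ± 0.0664 (SE, edgeR adjusted p 3.16e-13). Junction-spanning reads of IL11 fell by 1.09 on the log2 scale (SE 0.164).

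CLCF1 (ENSG00000175505, chromosome 11, 67364168 to 67374177, minus strand) is a ligand bound by the receptor chain CNTFR. It was counted with 80, 76 and 69 exon reads in the shCtrl libraries and 167, 183 and 167 in the shNFKBIZ libraries. All shNFKBIZ libraries were above all shCtrl libraries. Its level rose from 6.66 ± 0.308 to 16.1 ± 1.12 TPM (SD, n = 3), a log2 fold change of 1.19 ± 0.118 (SE, edgeR adjusted p 1.2e-08). Only 12 of its summed shCtrl reads and 27 of its shNFKBIZ reads spanned a junction, too few for the test. RAD9A lies on the opposite strand, its annotated span shares 10010 bases with that of CLCF1, and the counting did not use strand. The exon reads of RAD9A ran from 252 to 319 in shCtrl and from 359 to 413 in shNFKBIZ, the same direction as CLCF1. The part of RAD9A in the exon reads of CLCF1 was not tested. CNTFR had 0 reads in all libraries.

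CTF1 (ENSG00000150281, chromosome 16, 30896614 to 30903547, plus strand), a ligand first known from heart muscle, was close to the detection limit, with 8, 14 and 8 exon reads in the shCtrl libraries and 21, 28 and 19 in the shNFKBIZ libraries. The lowest shNFKBIZ library lay above the highest shCtrl library. The log2 fold change was 1.16 ± 0.316 (SE, edgeR adjusted p 0.00291), from 0.984 ± 0.297 to 2.36 ± 0.533 TPM (SD, n = 3). The call depended on 1 library, since without shNFKBIZ replicate 2 the log2 fold change was 0.98 (edgeR adjusted p 0.0234), short of 2-fold. OSM (ENSG00000099985, chromosome 22, 30262829 to 30266851, minus strand), a cytokine made mainly by leukocytes, had 0 reads in each library, which allows a level of up to 0.220 to 0.245 TPM depending on the library (3 reads). Markers of leukocytes were near 0 as well, with summed TPM of 5 genes from 0.0977 to 0.663 in shCtrl and from 0.297 to 0.727 in shNFKBIZ.

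**Figure D2:**
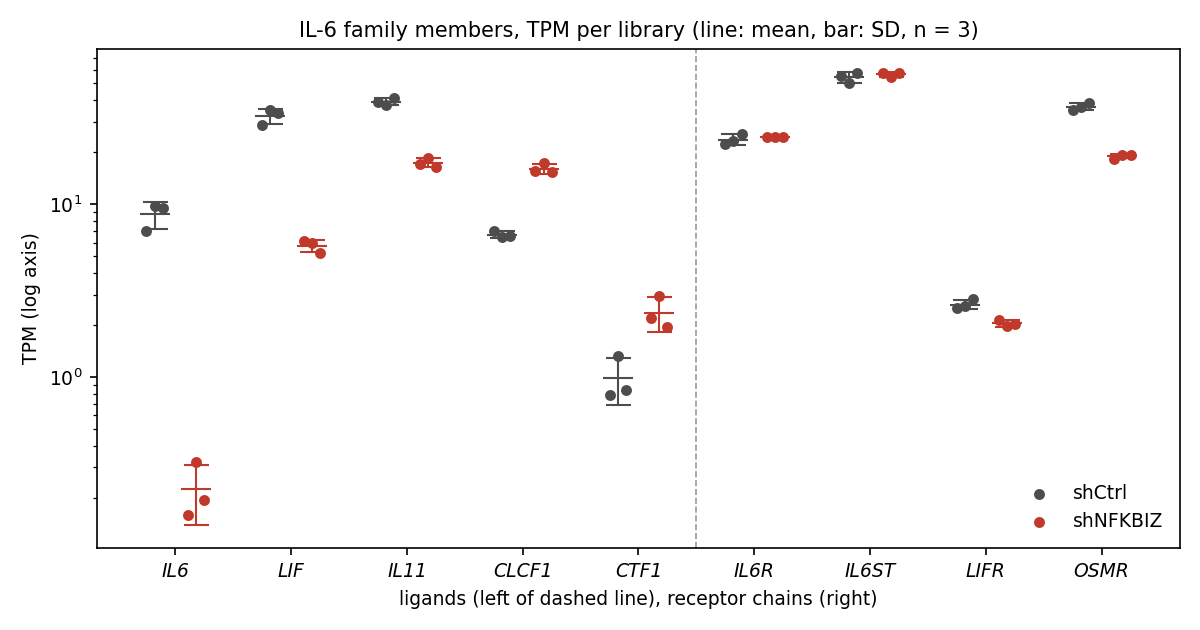
TPM of the 9 detected members in each of the 6 libraries on a log axis, with ligands left and receptor chains right of the dashed line; points are libraries, horizontal lines group means and bars SDs (n = 3), shCtrl in grey and shNFKBIZ in red. IL6, LIF, IL11 and OSMR sit lower and CLCF1 and CTF1 higher in shNFKBIZ, while IL6R and IL6ST overlap between the groups.

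Each tested ligand had a log2 fold change of at least 1.16 in size and no receptor chain had one above 1.04. This difference between the classes was not tested and depends on the fit. The smallest ligand value was that of CTF1, which passed the filter with 1 of 3 shCtrl libraries. CTF1 had 0.98 without shNFKBIZ replicate 2 and 0.88 with total gene reads, smaller in size than OSMR there (-1.03 and -1.13). OSMR was lower and past the threshold, LIFR was lower by less than 2-fold, and no difference beyond the replicate error was found for IL6R and IL6ST. Of the 4 chains, which all passed the filter, 1 was past the threshold and lower (5.12% of all genes tested) and 0 were past it and higher (3.84%). At an adjusted p of at most 0.05 with no fold limit, 2 of the 4 were lower, where 32.8% of all genes were lower and 32.5% higher. The median log2 fold change of the chains was -0.24.

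IL6ST (ENSG00000134352, chromosome 5, 55935095 to 55995022, minus strand), the shared chain gp130, was the most abundant member in both groups. It was counted with 4139, 3890 and 4007 exon reads in the shCtrl libraries and 4037, 3765 and 4150 in the shNFKBIZ libraries. The ranges overlapped, and at this depth the log2 fold change of -0.03 had a 95% interval of -0.11 to 0.06 (edgeR adjusted p 0.634). IL6R (ENSG00000160712, chromosome 1, 154405193 to 154469450, plus strand), the chain that binds IL-6 itself, was counted with 970, 1045 and 1029 exon reads in the shCtrl libraries and 998, 984 and 1022 in the shNFKBIZ libraries. Its log2 fold change was -0.03, with a 95% interval of -0.13 to 0.07 (edgeR adjusted p 0.576). For both chains the interval thus left room for small changes in either direction, and none near 2-fold. With library size alone as scaling, which moved the median of all genes to 0.09, the log2 fold change was 0.06 for each, with no call.

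OSMR (ENSG00000145623, chromosome 5, 38845858 to 38945596, plus strand), the chain for oncostatin M that also takes part in the IL-31 receptor, was counted with 1565, 1685 and 1597 exon reads in the shCtrl libraries and 772, 790 and 825 in the shNFKBIZ libraries. Each shNFKBIZ library had close to 1 read for every 2 in shCtrl. The level fell from 36.7 ± 1.76 to 19.0 ± 0.508 TPM (SD, n = 3), a log2 fold change of -1.04 ± 0.0476 (SE, edgeR adjusted p 2.79e-14). The fall was just over 2-fold, and the call by size was lost with library size alone (-0.95) and with junction-spanning reads (-0.97), although the adjusted p stayed below 0.05 in both. LIFR (ENSG00000113594, chromosome 5, 38474668 to 38608354, minus strand), the chain for LIF, CTF1 and CLCF1, was the least abundant chain. It was counted with 190, 200 and 197 exon reads in the shCtrl libraries and 152, 138 and 146 in the shNFKBIZ libraries, with no overlap. Its log2 fold change was -0.44 ± 0.0986 (SE, edgeR adjusted p 0.00047), lower but short of 2-fold.

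The order of the levels differed between the groups. In shCtrl cells it was IL6ST (54.3 ± 3.79 TPM), IL11, OSMR, LIF, IL6R, IL6, CLCF1, LIFR and CTF1, with OSM at 0. The ranges of the libraries overlapped for IL11 and OSMR, for OSMR and LIF, and for IL6 and CLCF1. Within each shCtrl library IL11 stood above OSMR and OSMR above LIF. The order of IL6 and CLCF1 differed between the libraries and is not resolved. In shNFKBIZ cells the order was IL6ST (56.4 ± 1.89 TPM), IL6R, OSMR, IL11, CLCF1, LIF, CTF1, LIFR and IL6, with OSM at 0. The ranges overlapped for OSMR and IL11, IL11 and CLCF1, and CTF1 and LIFR. Within each shNFKBIZ library OSMR stood above IL11 and IL11 above CLCF1, while the order of CTF1 and LIFR differed between the libraries. IL6 thus stood above LIFR, the least abundant chain, in shCtrl and below it in shNFKBIZ, at 0.225 ± 0.0860 TPM (SD, n = 3).

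Summed over the 6 ligands, the level was 82.4 to 91.7 TPM in the shCtrl libraries and 39.2 to 45.1 TPM in the shNFKBIZ libraries. The makeup of this sum differed too. IL6 made up 8.45% to 10.8% of it in shCtrl and 0.385% to 0.715% in shNFKBIZ, and LIF 35.0% to 38.9% and 13.2% to 14.8%. On average CLCF1 took the place of LIF as the second ligand, with 7.11% to 8.51% in shCtrl and 37.8% to 39.1% in shNFKBIZ. The share of IL11 was 44.6% ± 2.74 in shCtrl and 41.6% ± 0.547 in shNFKBIZ (SD, n = 3), so that it remained the largest share on average. The receptor chains summed to 112.5 to 124.5 TPM in shCtrl and 99.9 to 103.8 TPM in shNFKBIZ. Ligand RNA thus stood at 71.6% to 80.1% of receptor chain RNA in shCtrl and at 37.7% to 45.1% in shNFKBIZ, without overlap.

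**Figure D3:**
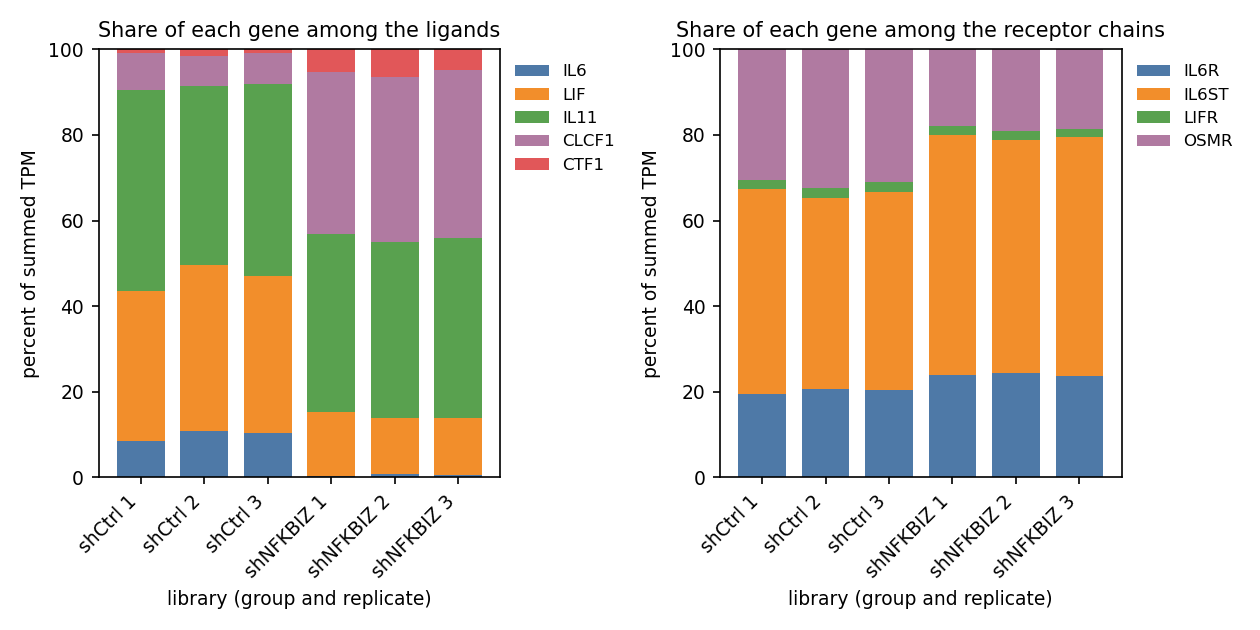
Share of each gene in the summed TPM of the detected ligands (left) and of the receptor chains (right), in percent, as stacked bars for each of the 6 libraries. CLCF1 holds 7.11% to 8.51% of ligand RNA in shCtrl and 37.8% to 39.1% in shNFKBIZ, and OSMR holds a smaller share of receptor chain RNA in shNFKBIZ.

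Because LIFR, OSMR and IL6R act together with gp130, their levels were also expressed as a percentage of IL6ST in the same library. OSMR stood at 63.6%, 72.8% and 67.0% of IL6ST in shCtrl and at 32.1%, 35.3% and 33.4% in shNFKBIZ. LIFR stood at 4.55%, 5.10% and 4.88% in shCtrl and at 3.73%, 3.64% and 3.49% in shNFKBIZ. Neither ratio overlapped between the groups, with log2 differences of -1.01 and -0.42 (exact permutation test, two-sided, p 0.1 each, 0.15 adjusted over the 3 ratios). With 3 against 3 libraries 0.1 is the smallest p possible, so this test cannot pass 0.05. IL6R stood at 40.4%, 46.3% and 44.3% of IL6ST in shCtrl and at 42.6%, 45.1% and 42.5% in shNFKBIZ, and the groups overlapped (exact permutation p 1, adjusted 1).

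Intron reads come largely from RNA that is not yet spliced, and were compared on their own to see which members changed there too. LIF and OSMR were past the threshold and lower, where 3.89% of the 12119 genes tested on intron reads were, and CLCF1 was past it and higher, where 2.71% were. Of the ligands, 3 were tested with a median log2 fold change of -0.64, and of the chains 3 with a median of -0.54, against 0.00817 for all genes. LIF was counted with 20, 32 and 27 intron reads in the shCtrl libraries and 4, 5 and 6 in the shNFKBIZ libraries, a log2 fold change of -2.46 ± 0.352 (SE, edgeR adjusted p 5.5e-07). OSMR had 343, 360 and 276 in shCtrl and 96, 120 and 109 in shNFKBIZ, a log2 fold change of -1.68 ± 0.101 (SE, edgeR adjusted p 2.3e-16). Neither gene overlapped between the groups. The gene on the strand opposite to OSMR, RICTOR, had 149 to 158 intron reads in shCtrl and 120 to 142 in shNFKBIZ.

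The remaining members had less than a 2-fold change in intron reads, too few of them, or reads that cannot be placed. IL11 was counted with 24, 30 and 37 intron reads in the shCtrl libraries and 15, 23 and 24 in the shNFKBIZ libraries (log2 fold change -0.64, edgeR adjusted p 0.041), and its groups touched at 24. An adjusted p below 0.05 was lost for IL11 in intron reads with DESeq2 (0.186) and in 4 of the 6 fits that left out 1 library, namely without shCtrl replicate 2 or 3 or shNFKBIZ replicate 1 or 2 (edgeR adjusted p 0.0656, 0.211, 0.183 and 0.0666). IL6R had 53, 53 and 54 in shCtrl and 38, 47 and 32 in shNFKBIZ (-0.54, edgeR adjusted p 0.0158), which was lost with DESeq2 (adjusted p 0.116) and without shNFKBIZ replicate 3 (edgeR adjusted p 0.0946). IL6ST had 81 to 99 and 73 to 92 (-0.25, edgeR adjusted p 0.138), with overlap. IL6 had 8 intron reads over the 3 shCtrl libraries and 3 over the shNFKBIZ libraries, a ratio of 0.367 (exact 95% interval 0.0626 to 1.53), and a change could not be resolved with so few reads. CTF1 and LIFR had 13 intron reads in each group, again too few for the test. CLCF1 was counted with 22, 25 and 20 intron reads in the shCtrl libraries and 82, 95 and 111 in the shNFKBIZ libraries (log2 fold change 2.01), but only 7 and 18 of its summed intron reads were placed uniquely, and with unique reads it was not tested. A second annotated gene on the same strand, ENSG00000256514, shares 9417 bases with CLCF1, and RAD9A lies on the opposite strand, so that the intron reads of CLCF1 are uncertain. All exon reads of CLCF1 were unique, which means that each mapped to a single place and does not give its strand.

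Whether exon and intron reads of a member changed by different amounts was tested directly, as an interaction in 1 model over both classes of reads. The exon minus intron difference of log2 fold changes was called at an adjusted p of at most 0.05, which called exon reads lower than intron reads for 15.7% and higher for 13.1% of the 11025 genes tested. OSMR was called with a difference of 0.66 (SE 0.110, edgeR adjusted p 8.18e-07), since its intron reads fell by more than its exon reads. IL6R was called with 0.52 (SE 0.183, edgeR adjusted p 0.0227), but was lost when shCtrl replicate 1 (0.49), shNFKBIZ replicate 1 (0.52) or shNFKBIZ replicate 3 (0.39) was left out. CLCF1 was called with -0.81 (SE 0.235, edgeR adjusted p 0.0049), which rests on intron reads that are not unique. No difference was called for LIF (-0.09, edgeR adjusted p 0.901), IL11 (-0.60, edgeR adjusted p 0.0663) or IL6ST (0.24, edgeR adjusted p 0.172), and IL11 was called without shCtrl replicate 3 (-0.75) and without shNFKBIZ replicate 1 (-0.76). Intron reads made up a larger share of all gene reads in shNFKBIZ libraries, as given above. Exon and intron reads each had their own library size and scaling factor in this model. A shift of that share common to all genes was thus scaled out, and a part that differs between genes was not tested.

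**Figure D4:**
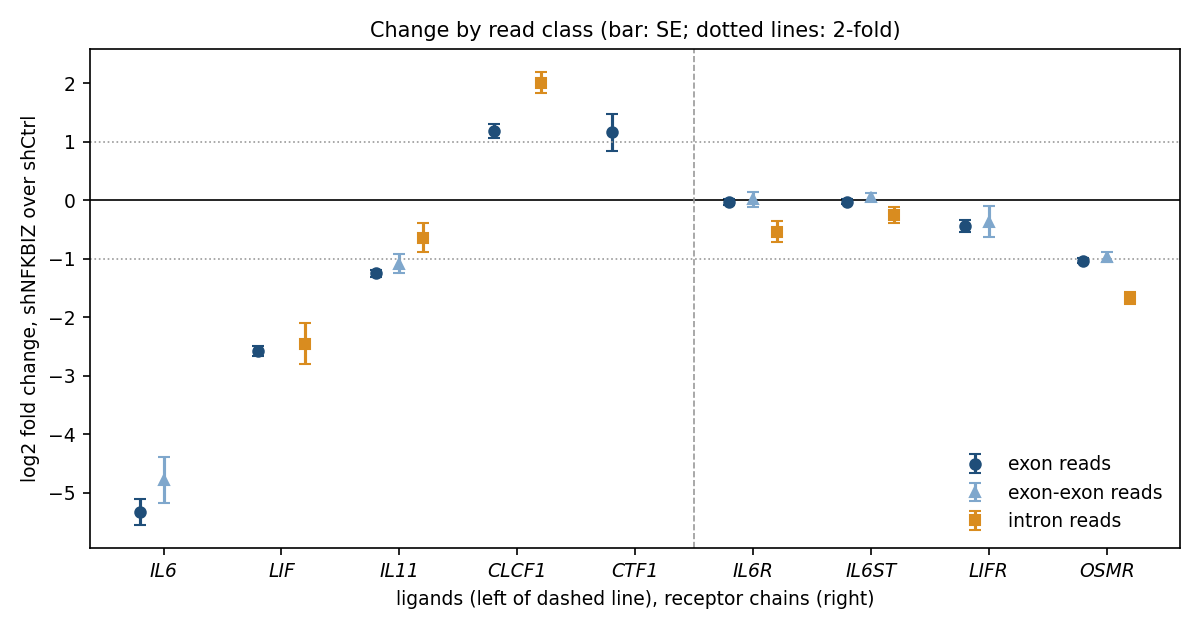
Log2 fold change of shNFKBIZ over shCtrl in exon reads, junction-spanning (exon-exon) reads and intron reads for each member that could be tested, with SE as bars, dotted lines at 2-fold, and ligands left of the dashed line. For OSMR the intron reads (-1.68) lie below the exon reads (-1.04), and for LIF both lie together (-2.46 and -2.58).

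When junction-spanning reads alone were compared, IL6 and IL11 were past the threshold and lower, where 4.1% of the 10622 genes tested were, and no member was past it and higher, where 2.49% were. LIF could not be tested there, with 40 such reads over the shCtrl libraries and 5 over the shNFKBIZ libraries, although it had 2318 and 390 exon reads. Only 1.73% of its exon reads in shCtrl spanned a junction, against 21.8% for IL6 and 23.3% for OSMR. The log2 fold changes of IL6R (0.01), IL6ST (0.05), LIFR (-0.37) and OSMR (-0.97) were close to those in exon reads, but LIFR was no longer called lower (95% interval -0.89 to 0.14, edgeR adjusted p 0.233).

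The other genes of the pathway were taken from lists and are given in the order of their roles. Among further ligands or ligand subunits (CNTF, IL27, EBI3 and IL31), 2 were tested, and EBI3, the subunit shared by IL-27 and IL-35, was past the threshold and higher. EBI3 was counted with 34, 37 and 31 exon reads in the shCtrl libraries and 112, 91 and 94 in the shNFKBIZ libraries, a log2 fold change of 1.53 ± 0.167 (SE, edgeR adjusted p 5.44e-08). Its partner IL27 had 0 reads in all libraries, as did IL31. CNTF, ciliary neurotrophic factor, had 17 to 40 exon reads in shCtrl and 23 to 29 in shNFKBIZ, with overlap (edgeR adjusted p 0.357). Of 4 further receptor chains (IL11RA, CNTFR, IL27RA and IL31RA), 3 were tested, none was past the threshold, and 2 were higher with no fold limit. IL27RA, the chain that pairs with gp130 for IL-27, had 16.3 ± 0.853 TPM in shCtrl and 30.4 ± 0.255 TPM in shNFKBIZ (SD, n = 3; log2 fold change 0.81, edgeR adjusted p 5.91e-10). IL11RA, the chain of IL-11, had 57 to 80 exon reads in shCtrl and 97 to 122 in shNFKBIZ (0.71), but only 17.8% of its exon reads were placed uniquely. IL31RA, the partner of OSMR in the IL-31 receptor, had 1769 to 1996 exon reads in shCtrl and 1843 to 1891 in shNFKBIZ, with overlap, and a log2 fold change of -0.03 in the TMM-scaled fit (edgeR adjusted p 0.523). Its TPM, which carries no TMM factor, ran from 26.8 to 27.2 in shCtrl and from 27.7 to 28.3 in shNFKBIZ, so that the direction of this small difference depends on the scaling.

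The genes that carry the signal inside the cell changed by small amounts. Of 10 listed kinases, STAT factors and adaptors, 9 were tested, 0 were past the threshold, and with no fold limit 6 were lower (32.8% of all genes) and 1 was higher (32.5%). Their median log2 fold change was -0.19. JAK1, the main kinase of gp130, had a log2 fold change of -0.42 ± 0.0370 (SE), and the adaptor GRB2 had one of -0.39 (SE 0.0340). The phosphatase PTPN11 had one of -0.19 (SE 0.0332), and STAT3 one of -0.23 (SE 0.0360). Of 2 proteases that shed IL6R from the cell surface, both were lower with no fold limit, ADAM10 by 0.94 and ADAM17 by 0.33 on the log2 scale, and neither was past the threshold.

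Of 4 feedback inhibitors, 3 were tested and SOCS3 was past the threshold and lower. SOCS3, which binds gp130 and blocks JAK kinases there, was counted with 2185, 2382 and 2206 exon reads in the shCtrl libraries and 555, 555 and 535 in the shNFKBIZ libraries. The replicates were close and the groups far apart. The level fell from 134.7 ± 5.73 to 34.3 ± 1.24 TPM (SD, n = 3), a log2 fold change of -2.06 ± 0.0482 (SE, edgeR adjusted p 2.87e-19) or 4.16-fold. SOCS1, a related inhibitor at a low level, was counted with 12, 14 and 9 reads in the shCtrl libraries and 4, 12 and 3 in the shNFKBIZ libraries, with overlap (log2 fold change -0.88, edgeR adjusted p 0.0871). PIAS3, an inhibitor of STAT3, had a log2 fold change of -0.07 (edgeR adjusted p 0.212).

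Of 24 genes known to respond to gp130 signalling, 16 were tested, 3 were past the threshold and lower (5.12% of all genes) and 1 was past it and higher (3.84%). With no fold limit, 9 were lower (32.8% of all genes) and 5 higher (32.5%), and their median log2 fold change was -0.51. BCL3, an atypical IκB protein like IκBζ, was counted with 675, 730 and 594 exon reads in the shCtrl libraries and 110, 127 and 120 in the shNFKBIZ libraries (log2 fold change -2.50, SE 0.0829, edgeR adjusted p 9.95e-17). The kinase PIM1 had 359 to 410 reads in shCtrl and 170 to 183 in shNFKBIZ (-1.15, SE 0.0812). The transcription factor CEBPD had 410 to 468 and 196 to 215 (-1.11, SE 0.0784). CCND1, cyclin D1, moved the other way, from 481.6 ± 24.4 to 1139.1 ± 10.4 TPM (SD, n = 3), a log2 fold change of 1.16 ± 0.0353 (SE, edgeR adjusted p 2.24e-17). Among the more abundant others, HIF1A (-0.97) and MCL1 (-0.63) were lower, and TIMP1 (0.44) and CEBPB (0.29) were higher, each with an adjusted p below 0.05 and less than a 2-fold change.

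**Figure D5:**
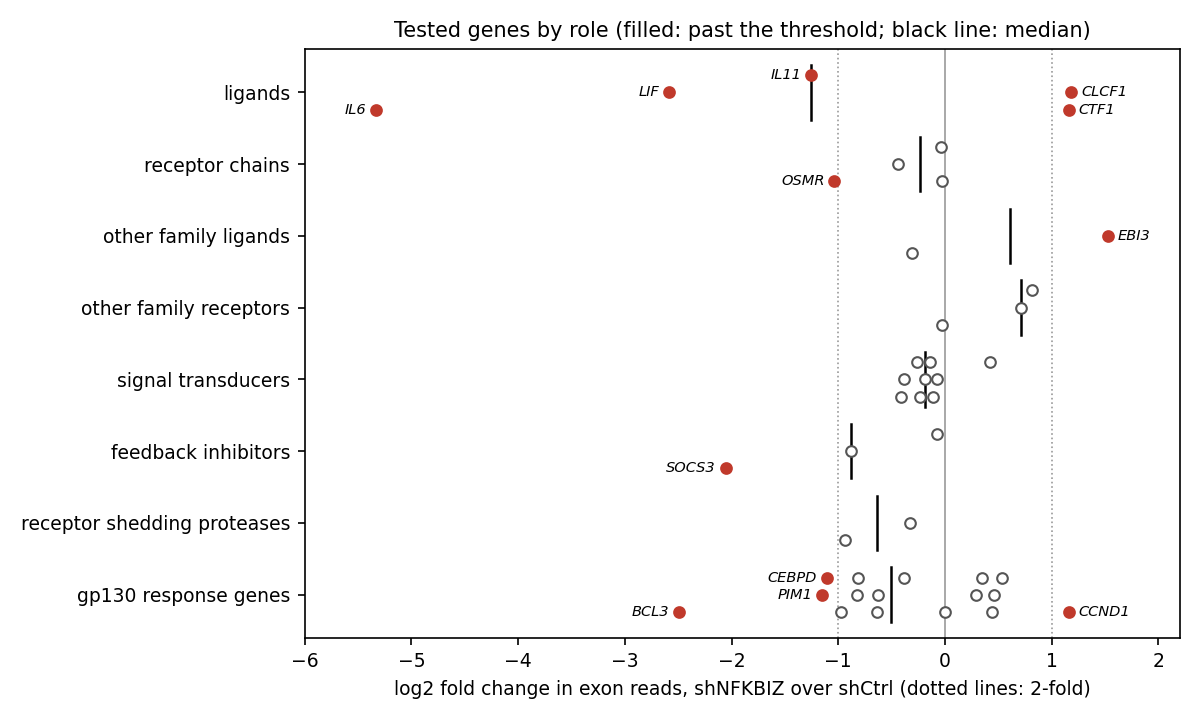
Log2 fold change in exon reads of each tested gene on the x axis, in rows by role, with filled red points past the threshold, open points short of it, a black line at the median of each row and dotted lines at 2-fold. SOCS3 (-2.06) and BCL3 (-2.50) lie lowest outside the ligands, and EBI3 (1.53) lies highest.

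Markers of other cell types were read beside these results. Of 4 fibroblast markers, COL1A1 (log2 fold change -1.89) and PDGFRB (-1.98) were past the threshold and lower, with summed TPM of 30.1 to 32.9 in shCtrl and 7.88 to 10.4 in shNFKBIZ, while DCN and LUM had at most 4 reads in any library. The epithelial markers KRT18 (-0.40) and KRT8 (0.65) were expressed and EPCAM and CDH1 had at most 5 reads, with summed TPM of 395.1 to 417.9 and 330.0 to 351.5. The 3 endothelial markers summed to at most 0.0623 TPM in shCtrl and 0.102 TPM in shNFKBIZ. The melanocyte markers summed to 3.19 to 4.23 TPM in shCtrl and 1.79 to 2.62 TPM in shNFKBIZ. The part of the fibroblast and melanocyte markers in the changes of the IL-6 family was not tested.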

How the data were processed

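RNA-seq libraries of LOX-IMVI cells, 3 shCtrl and 3 shNFKBIZ, were grouped by their titles. The authors mapped reads to hg38 with CLC Genomics Workbench 24.0 under default settings, which do not use strand, and deposited whole-number counts of exon, intron, junction-spanning and unique reads per gene for each library. The count precision is limited by depth where a gene has few reads, and exact intervals and floors cover counting error only. The intervals of log2 fold changes run 1.96 standard errors of the edgeR fit to either side and also cover the spread between libraries. TPM was recomputed from exon reads and exon length and matched the deposited TPM.

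Counts were filtered with filterByExpr (for a library of median size, at least 10 reads in 3 libraries, equal to 0.443 CPM), scaled with TMM factors and tested with edgeR 4.0.16 in R 4.3.3 (glmQLFit with robust estimation, glmQLFTest, Benjamini-Hochberg over all genes tested). Exon minus intron differences were tested in 1 model with library blocks. The standard error is the log2 fold change divided by the square root of F. The exon, intron and exon minus intron fits were tested on simulated data, in which 200 genes changed by 2 on the log2 scale. Of these, 100%, 100% and 99.5% were recovered, and 1, 1 and 12 unchanged genes were called. Genes with low counts were not among those changed and smaller changes were not simulated, so the check does not cover them. Every simulated gene had the same spread between libraries, which was set and not taken from these data. The exon and intron calls also kept the 2-fold limit, so the figures do not measure error rates in these data. The members and lists were chosen with earlier results of these data known. Named genes were NFKBIZ, the members, genes overlapping them, and of each list those past the threshold and up to 4 others with the highest mean TPM. CNTFR, IL27, IL31 and the cell type markers with few or 0 reads are outside this rule and were named after their values were seen. Alternatives were RLE factors, library size alone, other filters, DESeq2 1.42.0, no fold limit, unique or total gene reads, a replicate block and leaving out each library. Junction-spanning reads, and unique reads for the exon minus intron difference, were added after seeing the data. The deposited columns other than those counts were not used. One listed gene is not reported here.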

Additional observations from a re-analysis of the deposited data

How the results depend on the processing

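Of the 6 members past the threshold in exon reads, 4 were lower and 2 higher. The number of higher members was 1 when 10 reads were required in every library and with total gene reads, and ran from 1 to 2 when 1 library was left out. With total gene reads CTF1 was short of 2-fold (log2 fold change 0.88, edgeR adjusted p 0.0125). Junction-spanning reads gave 2 members, 2 lower and 0 higher, where fewer members could be tested. Of the 3 members past the threshold in intron reads, 2 lower and 1 higher, 10 reads in every library left 1 lower, no fold limit gave 5, of which 4 lower (IL11 and IL6R among them, whose losses are given with their values, IL11 also with library size alone and with no filter, edgeR adjusted p 0.0622 and 0.0598), and unique reads gave 0 higher. Of the 3 members with an exon minus intron difference, unique reads gave 0 with exon reads lower than intron reads, and leaving out 1 library gave from 1 to 2 in each direction. The cause was not tested. The log2 fold changes of IL6, LIF and IL11 in exon reads ran from -5.66 to -4.79, from -2.66 to -2.49 and from -1.29 to -1.09 over all alternatives that gave them a value, and each of these members kept its call there. Requiring 10 reads in every library gave IL6 and CTF1 no value.

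Libraries with the same replicate number were treated as unpaired, since the titles state no pairing. Their deviations from the group means had correlations of 0.0254, 0.0828 and 0.0161. No clear shared effect was thus seen, which does not show whether they were made in parallel. A replicate block gave 6 members in exon reads, 3 in intron reads and changed no member's call. Low counts limit IL6 in shNFKBIZ, CTF1, and the intron reads of IL6, CTF1 and LIFR.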
